A study of Mus musculus with 6 samples.

Results

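The 9 genes described here, measured by RNA-seq in 6 libraries of V6.5 murine ESCs, encode the enzymes that write and remove DNA methylation and their core cofactors. They are Dnmt1, Uhrf1, Dnmt3a, Dnmt3b, Dnmt3l, Tet1, Tet2, Tet3 and Tdg, chosen by name from 21094 genes in the files. Each gene was read from its RefSeq row with the most counts summed over the 6 libraries, and 8 of the 9 genes reached an RPKM of 1 in the control library. RPKM is a read count divided by exon length and library reads. Tdg stayed below 1.

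All cells were the V6.5 ESC line, a C57BL/6-129 line kept on irradiated mouse embryonic fibroblasts and grown off them for one passage. All cells carried a lentiviral shRNA and were selected with puromycin, at 0.5 and then 1 µg/ml for 48 h each per the labels, which place the harvest 96 h after selection. The control shRNA targeted GFP (1 library). Knockdown shRNAs targeted SMC1, a subunit of cohesin (1 library), CAPH2, the kleisin of condensin II (2 libraries), and SMC2, the ATPase shared by condensin I and condensin II (2 libraries). The 2 libraries of a target were made with different hairpins, and each hairpin was sequenced once. RNA was therefore compared between whole cultures, in which fewer cells of a type and less RNA per cell cannot be told apart.

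DNMT3A and DNMT3B place new methyl groups on cytosine in CpG dinucleotides, and DNMT3L, which has no catalytic activity of its own, assists them in early embryonic and germ cells. DNMT1 copies methylation to the daughter strand at replication, guided by UHRF1, which reads hemimethylated CpG. TET1, TET2 and TET3 oxidize 5-methylcytosine, and TDG excises the most oxidized products so that base excision repair can restore cytosine. Naive ESCs are known for high TET1 and TET2, and TET3 is the TET enzyme of the oocyte and zygote and of many differentiated tissues.

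The level of all 9 genes differed widely within a library. In the GFP library, on the RPKM scale, the order from high to low was Dnmt3l (148), Uhrf1 (145), Dnmt3b (115), Dnmt1 (98.5), Tet1 (46.1), Dnmt3a (31.4), Tet2 (16.4), Tet3 (2.72) and Tdg (0.708). Dnmt3l and Uhrf1 lay close together, and Dnmt3l varied over the 4 CAPH2 and SMC2 libraries from 131 to 152, a range that holds the level of Uhrf1 in the GFP library. The same order held in the CAPH2 libraries, while in both SMC2 libraries Dnmt3b stood above Uhrf1. With the first SMC2 hairpin Dnmt3b was also first, at 135 against 133 for Dnmt3l. In the SMC1 library, Dnmt3b was first as well, Dnmt3a stood above Tet1, and Tet3 stood above Tet2.

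**Figure D1:**
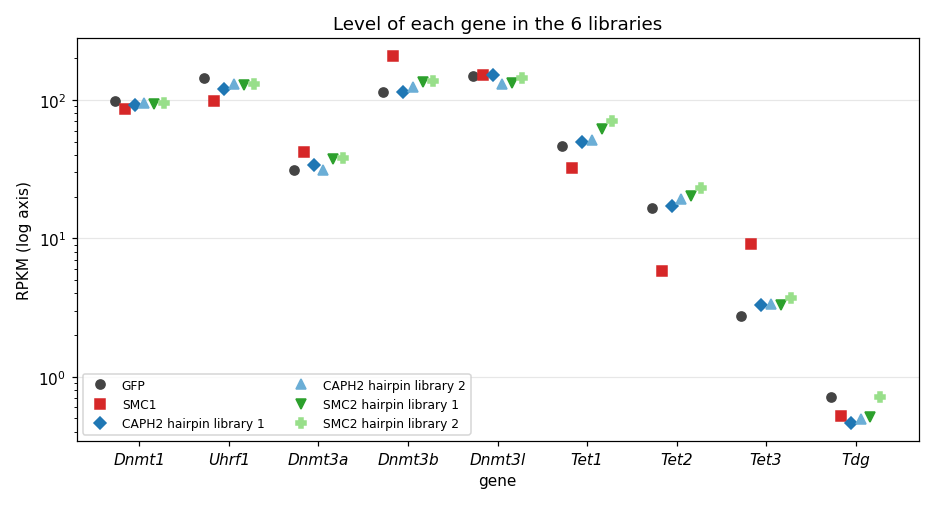
RPKM (log axis) of each gene in each of the 6 libraries, 1 point per library. The SMC1 library (red squares) lies above all other libraries for Dnmt3a, Dnmt3b and Tet3 and below them for Dnmt1, Uhrf1, Tet1 and Tet2.

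CpG dinucleotides are the substrate of these enzymes, and the genes differed in how many lie before the start of their row. The 250 bases upstream of each row's start were read from the mm9 genome, the build of the files, and 23016 such windows of distinct RefSeq starts served for comparison. The windows are shown for Tet2 and Tet3, the genes with the largest difference between SMC1 and the other knockdowns in each direction, and for Dnmt3l, the gene with the smallest, with each CpG in capitals.
Tet2, chr3:133207355-133207604, minus strand: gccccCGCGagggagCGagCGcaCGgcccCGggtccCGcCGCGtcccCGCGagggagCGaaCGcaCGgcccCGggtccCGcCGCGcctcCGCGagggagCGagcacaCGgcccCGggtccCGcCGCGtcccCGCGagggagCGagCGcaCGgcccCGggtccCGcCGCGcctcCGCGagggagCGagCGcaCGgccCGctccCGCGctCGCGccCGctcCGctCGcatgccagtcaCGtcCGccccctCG
Tet3, chr6:83391673-83391922, minus strand: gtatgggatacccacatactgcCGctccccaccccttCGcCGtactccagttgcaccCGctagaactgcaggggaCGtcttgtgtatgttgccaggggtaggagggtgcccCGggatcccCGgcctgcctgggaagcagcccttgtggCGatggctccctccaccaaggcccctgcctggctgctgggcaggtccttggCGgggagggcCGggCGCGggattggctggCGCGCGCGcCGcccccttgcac
Dnmt3l, chr10:77512337-77512586, plus strand: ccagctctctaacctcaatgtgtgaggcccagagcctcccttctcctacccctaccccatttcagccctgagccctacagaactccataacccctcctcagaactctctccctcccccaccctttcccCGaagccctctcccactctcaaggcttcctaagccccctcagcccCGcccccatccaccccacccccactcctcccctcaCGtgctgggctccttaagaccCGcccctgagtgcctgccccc
The Tet2 window held 51 CpGs, more than 99.9% of all windows, against a median of 10. The Tet3 window held 17 CpGs and the Dnmt3l window 4. The Dnmt3a and Dnmt3b windows held 38 and 21 CpGs, and the Uhrf1 window held 10. The letters GGGCGG, on either strand, were found once in the Tet2 window, once in the Tet3 window and 2 times in the Dnmt3l window, and in 44.7% of all windows. CACGTG, which is its own reverse complement, was found in the Dnmt3l window and in 6.82% of all windows. The Dnmt3l window precedes the start of 1 of its 2 RefSeq rows. The other row begins upstream of it, so this window lies inside the gene as that row draws it. The Tet1 row begins inside the gene as GENCODE draws it, so its window was not the start of the gene and is not shown.

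The targets of the hairpins were measured in the same libraries. Smc1a, which encodes SMC1, was at an RPKM of 36.1 with GFP and 14.4 with SMC1, 39.9% of the control. Ncaph2, which encodes CAPH2, was at 80.2 with GFP at 16.9 and 27.9 with its own hairpins, at 53.98 with SMC1 (67.3% of the control) and at 63.9 and 64.9 with SMC2. Smc2 was at 26.6 with GFP, at 18.8 and 19.1 with its own hairpins, and at 40.6 to 42.3 with SMC1 and CAPH2. The SMC2 libraries thus kept a larger part of their target than the others. Counts over RefSeq rows summed to between 25016322 and 30988288 per library.

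The markers of the labelled cell type were present in every library, but at a lower level with SMC1. All 8 ESC markers reached an RPKM of 1 in all 6 libraries. Their summed RPKM was 3273 with GFP, 1785 with SMC1 and between 2712 and 2920 in the other 4. The summed RPKM of 8 fibroblast markers was 49.99 with GFP, 108 with SMC1 and 54.5 to 76.1 in the others, and 1 of the 8, Lum, was at 0 in both CAPH2 libraries. The sum of 6 neural markers was 106 with GFP, 140 with SMC1 and 106 to 122 in the others, and the sum of 8 primitive endoderm markers was 7.70, 12.96 and 8.54 to 10.2. The sum of 8 trophectoderm markers was 67.8, 21.6 and 53.8 to 58.0, with Elf5 at 0 in 5 of the 6 libraries. Most of that sum was Tfap2c, at 51.2 with GFP and 5.85 with SMC1, while Cdx2 was at 0.325 and 2.59, Krt7 at 3.14 and 5.94 and Gata3 at 0.650 and 1.55, so its members went both ways. In the edgeR comparison of SMC1 with the CAPH2 and SMC2 libraries described below, 3 of the 7 trophectoderm markers tested were called higher and 3 lower. There 7 of 8 ESC markers were lower, 5 of 6 fibroblast, 3 of 5 neural and 2 of 8 primitive endoderm markers tested were higher, and 0 members of these 4 lists were called the other way, where 23.1% of all rows were higher and 21.3% lower. The part of these markers in the differences described below was not tested.

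To ask how cohesin depletion changed the methylation machinery, the SMC1 library was first set against the GFP library. With 1 library on each side this comparison has no replicate check and no p-value. Of the 8 genes that reached an RPKM of 1 with GFP, 2 were at least 1.5-fold higher with SMC1 (Dnmt3b and Tet3) and 1 was at least 1.5-fold lower (Tet2). Among all 15538 rows past the same minimum, 15.5% were higher and 17.3% lower by this fold, so the counts are read as a description. Uhrf1, at a log2 change of -0.57, lay just inside the fold, which is 0.585 on the log2 scale. It passed the fold under TMM scaling (-0.61) and DESeq2 size factors (-0.61), so that 4 genes were past it, 2 in each direction. Scaling to the ERCC spike-ins, which moved the median of all rows to 0.82, put 6 genes past the fold. The median log2 change was -0.08 over these 8 genes and -0.02 over all rows.

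The SMC1 library could also be compared with the 4 CAPH2 and SMC2 libraries, a comparison in which the GFP library is not the reference. The SMC1 library is the same in both comparisons, so they are not independent. It was tested with edgeR's quasi-likelihood test over 18463 rows, in which the single SMC1 library is assumed to vary as the hairpin pairs do (2 residual degrees of freedom). Adjusted p-values in the following paragraphs are Benjamini-Hochberg values of this test. Of the 9 genes, Dnmt3a, Dnmt3b and Tet3 were higher with SMC1, Uhrf1, Tet1 and Tet2 were lower, and Dnmt1, Dnmt3l and Tdg did not pass the test. Among all rows, 23.1% were called higher and 21.3% lower. With library sizes taken from the ERCC spike-ins, 1 of the 9 genes was called, Tet3. Of the 18463 rows, 1541 were then called higher and 170 lower.

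The TET genes moved in opposite directions. The Tet2 RPKM was 16.4 with GFP, 5.82 with SMC1, 17.2 and 19.4 with CAPH2, and 20.1 and 23.1 with SMC2. The SMC1 library was far below all others, at 35.4% of the GFP library, and rested on 1027 counts. Its log2 change from GFP was -1.50 (95% exact binomial interval -1.60 to -1.40, counting error only). Against the CAPH2 and SMC2 libraries Tet2 was lower by a log2 fold change of -1.80 (SE 0.115, edgeR adjusted p = 5.22e-06).

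The Tet3 RPKM was 2.72 with GFP, 9.12 with SMC1, 3.28 and 3.34 with CAPH2, and 3.28 and 3.72 with SMC2. The SMC1 library was above all others, at 335% of the GFP library, and the other 5 libraries lay within a narrow band. The log2 change from GFP was 1.74 (interval 1.61 to 1.88), and the log2 fold change against the CAPH2 and SMC2 libraries was 1.40 (SE 0.0897, edgeR adjusted p = 5.22e-06). No GENCODE gene of either strand shares exon bases with Tet2 or Tet3.

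Tet1, the most abundant TET transcript in every library, was at an RPKM of 46.1 with GFP, 32.2 with SMC1, 49.3 and 51.4 with CAPH2, and 61.6 and 70.02 with SMC2. The SMC1 library was lowest and the SMC2 libraries highest. The log2 change from GFP with SMC1 was -0.52 (interval -0.56 to -0.48), and against the CAPH2 and SMC2 libraries the log2 fold change was -0.86 (SE 0.0867, edgeR adjusted p = 6.14e-05). Scaling to the ERCC spike-ins turned the SMC1 against GFP value of Tet1 to 0.32, while its value against the CAPH2 and SMC2 libraries stayed negative, at -0.44.

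Ratios between genes within a library do not depend on how libraries are scaled to each other. The ratio of Tet2 to Tet3, in RPKM, was 6.03 in the GFP library, between 5.25 and 6.22 in the CAPH2 and SMC2 libraries, and 0.638 in the SMC1 library. Tet3 made up 4.17% of the summed TET RPKM in the GFP library, 3.84% to 4.69% in the CAPH2 and SMC2 libraries and 19.4% with SMC1. The share of Tet2 was 25.2% in the GFP library, 23.7% to 26.1% in the CAPH2 and SMC2 libraries and 12.3% with SMC1. The share of Tet1 lay between 68.3% and 72.5% in all 6 libraries. Tet3 thus exceeded Tet2 in the SMC1 library alone among these 6.

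**Figure D2:**
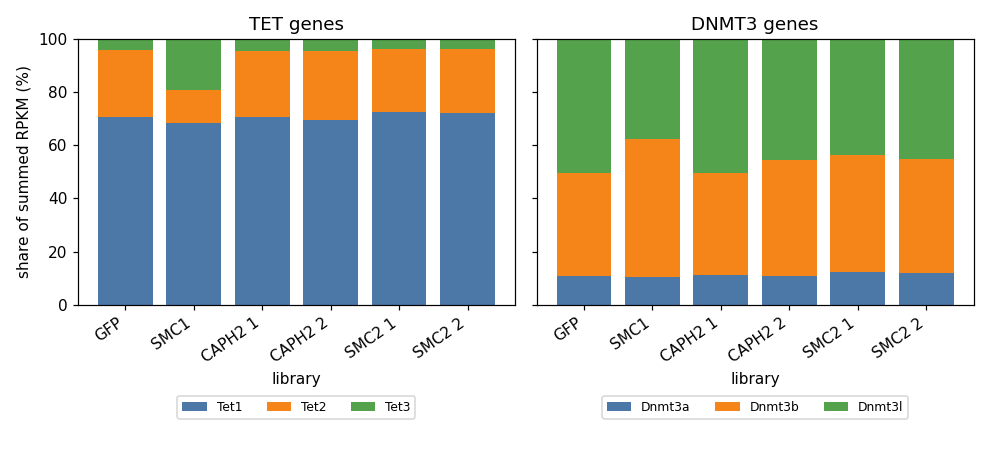
Share (%) of each gene in the summed RPKM of the TET genes (left) and of the DNMT3 genes (right), 1 bar per library. With SMC1 the Tet3 share is 19.4% against 3.84% to 4.69% elsewhere, and the Dnmt3b share is 51.7% against 38.1% to 44.1%.

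Among the de novo enzymes, Dnmt3b differed most. Its RPKM was 115 with GFP, 207 with SMC1, 114 and 125 with CAPH2, and 135 and 138 with SMC2. The SMC1 library was above all others, at 181% of the GFP library. The log2 change from GFP was 0.85 (interval 0.82 to 0.89), and against the CAPH2 and SMC2 libraries the log2 fold change was 0.67 (SE 0.0700, edgeR adjusted p = 7.54e-05). Its 5 RefSeq rows share most exons, and their log2 changes with SMC1 differed by at most 0.0027.

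The Dnmt3a RPKM was 31.4 with GFP, 42.0 with SMC1, 34.1 and 31.4 with CAPH2, and 37.4 and 38.1 with SMC2. The SMC1 library was highest, and one CAPH2 library was level with GFP. The log2 change from GFP was 0.42 (interval 0.37 to 0.47), and against the CAPH2 and SMC2 libraries the log2 fold change was 0.23 (SE 0.0713, edgeR adjusted p = 0.0250). Its second RefSeq row begins inside the gene, at the start used for the shorter DNMT3A isoform, and its log2 change with SMC1 was 0.45. An annotated gene on the opposite strand, Gm10485, shares 0.815% of the Dnmt3a exon bases.

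Dnmt3l, the cofactor without catalytic activity, was at an RPKM of 148 with GFP, 151 with SMC1, 152 and 131 with CAPH2, and 133 and 145 in the SMC2 libraries. The CAPH2 libraries held the lowest and the highest value of all 6, both SMC2 libraries lay below GFP and SMC1, and the hairpins of a target differed from each other by more than SMC1 differed from GFP. The log2 fold change of SMC1 against the CAPH2 and SMC2 libraries was 0.08 (SE 0.0903, edgeR adjusted p = 0.477). As Dnmt3b was higher at a like level of Dnmt3l, their ratio was 1.37 with SMC1, 0.773 in the GFP library and 0.752 to 1.01 in the CAPH2 and SMC2 libraries.

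The maintenance genes were lower or not called. The Uhrf1 RPKM was 145 with GFP, 97.5 with SMC1, 119 and 129 with CAPH2, and 128 and 130 in the SMC2 libraries. The GFP library was highest and the SMC1 library lowest, with a log2 change of -0.57 between them (interval -0.62 to -0.53). Against the CAPH2 and SMC2 libraries the log2 fold change was -0.40 (SE 0.0751, edgeR adjusted p = 0.00223), a direction that scaling to the ERCC spike-ins turned to 0.028. Of the Uhrf1 transcript, 72.2% of bases also matched a second place in the genome, so its counts are uncertain where reads could go to either.

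The Dnmt1 RPKM was 98.5 with GFP, 85.9 with SMC1, 92.2 and 94.5 with CAPH2, and 93.2 and 95.7 in the SMC2 libraries. Its highest level was 1.15 times its lowest, the smallest ratio of the 9 genes, and the SMC1 library was below all others by a small margin. Its log2 fold change against the CAPH2 and SMC2 libraries was -0.15 (SE 0.0674) and did not pass the test (edgeR adjusted p = 0.0922). The ratio of Dnmt3b to Dnmt1 was 1.16 in the GFP library, 1.24 to 1.45 in the CAPH2 and SMC2 libraries and 2.41 with SMC1.

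Tdg was measured poorly. It had 30 to 49 counts per library and an RPKM of 0.708 with GFP, 0.517 with SMC1, 0.466 and 0.495 with CAPH2, and 0.510 and 0.715 in the SMC2 libraries. The counting interval of its log2 change with SMC1 ran from -1.14 to 0.22, so a change was not detectable at these counts. Of the Tdg transcript, 87.8% of bases matched at least 3 places in the mm9 genome at 95% identity or more, and the authors discarded reads that aligned to more than 2 places. The level given for Tdg is therefore uncertain, and Glt8d2, on the opposite strand, shares 6.83% of its exon bases.

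**Figure D3:**
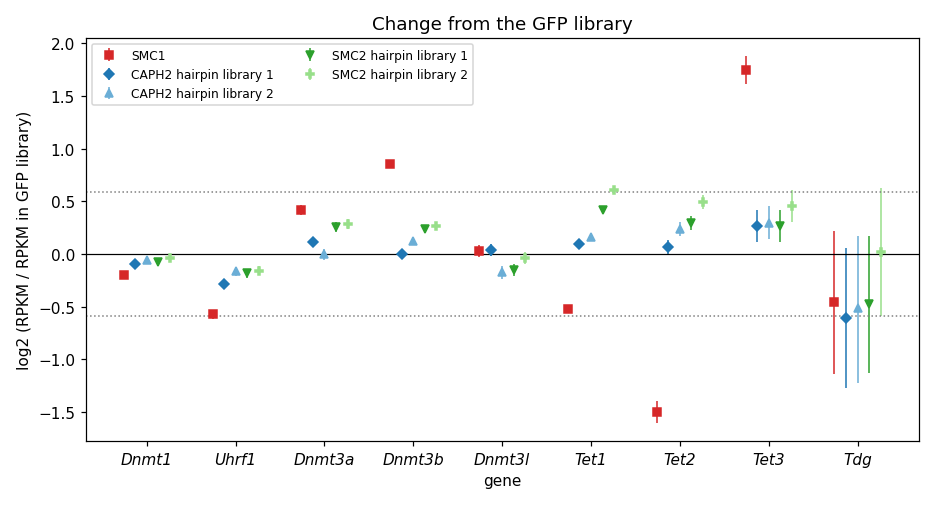
Log2 of the RPKM in each knockdown library over the GFP library for the 9 genes, with 95% exact binomial intervals (counting error only), and the 1.5-fold limits dotted. Tet3 (1.74) and Dnmt3b (0.85) lie above the upper limit with SMC1 and Tet2 (-1.50) below the lower one. Scaled to the ERCC spike-ins, the SMC1 values of Dnmt1, Uhrf1, Tet1 and Tdg change sign.

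With condensin depletion none of the 8 genes was past 1.5-fold in the mean of the CAPH2 libraries, where 3.06% of all rows were higher and 3.74% lower, or in the mean of the SMC2 libraries, where 2.26% were higher and 3.53% lower. No test was run on either comparison by itself. The largest log2 change among them was that of Tet1 with SMC2, at 0.51 (SD between hairpins of the log2 change 0.131, n = 2). The library of the second SMC2 hairpin alone put Tet1 at 0.60, past the fold, so without SMC2 replicate 1 the count was 1. With CAPH2 the largest was that of Tet3, at 0.28 (SD 0.0207, n = 2).

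The 4 CAPH2 and SMC2 libraries were tested together against the GFP library in the same edgeR fit, where the single GFP library is assumed to vary as the hairpin pairs do. Of the 9 genes, 1 was called higher and 0 lower, where 7.04% of all rows were called higher and 5.43% lower. Tet1 was higher by a log2 fold change of 0.33 (SE 0.0832, edgeR adjusted p = 0.0336). Tet3 (0.33, adjusted p = 0.0662), Tet2 (0.29, adjusted p = 0.0901) and Uhrf1 (-0.19, adjusted p = 0.115) did not pass the test. At an unadjusted p under 0.05 there were 6 of the 9 genes and 5647 of 18463 rows. With ERCC library sizes 0 of the 9 genes were called, and among all rows 2 were called higher and 0 lower. The count of calls depended on which library was left out, as did the share of all rows called. Without CAPH2 replicate 1, the log2 fold change was 0.33 for Tet2 and 0.34 for Tet3. Without CAPH2 replicate 2, it was 0.22 for Tet2, 0.31 for Tet3 and -0.23 for Uhrf1. All 3 TET genes had values above the GFP library in each of the 4 libraries, which are all set against that 1 library. For Tet2 with the first CAPH2 hairpin, the counting interval of the log2 change held 0 (-0.0022 to 0.13). Dnmt1 and Uhrf1 lay below the GFP library in each of the 4. The share of all rows that lay on 1 side of it was not counted.

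CAPH2 and SMC2 depletion were compared with 2 libraries on each side. The edgeR test called 0 of the 9 genes and 0.00548% of all rows. At an unadjusted p under 0.05 were 4 of the 9 genes and 565 of 18245 rows. DESeq2 called 1, Tet1, where it called 1 of the 18245 rows higher and 4 lower. The Tet1 RPKM was 49.3 and 51.4 with CAPH2 and 61.6 and 70.02 with SMC2. Its log2 fold change of CAPH2 against SMC2 was -0.40 (SE 0.0726, edgeR adjusted p = 0.9995, DESeq2 adjusted p = 0.0103). Over the alternatives other than ERCC library sizes, the log2 fold change of Tet1 ran from -0.48 to -0.30. The other genes at an unadjusted p under 0.05 were Dnmt3a (-0.22), Tet2 (-0.25) and Dnmt3b (-0.20), all lower with CAPH2 in value. For Dnmt1 the log2 fold change was -0.03 (SE 0.0591), the smallest error of the 9.

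Genes that work with these enzymes were counted in lists by role, in the comparison of SMC1 with the CAPH2 and SMC2 libraries. The list of partners and recruiters of the methyltransferases also holds genes that act against them. Of its 14 genes, 2 were higher, 9 lower and 3 not called, where 23.1% of all rows were higher and 21.3% lower. Their median log2 fold change was -0.29 and that of all rows -0.01. With ERCC library sizes, 6 of the 9 lower genes turned sign. The median of the list was then 0.13 and that of all rows 0.41. The largest decreases were those of Prdm14 (-3.35, SE 0.191, edgeR adjusted p = 2.88e-06), which represses the de novo enzymes in ESCs, and Dppa3 (-2.37), which keeps UHRF1 from chromatin. The Prdm14 RPKM was 19.9 with GFP, 1.40 with SMC1 and 12.5 to 15.7 in the other 4. The largest increases were those of Uhrf2 (0.46), a relative of Uhrf1, and Ehmt1 (0.31), a histone H3K9 methyltransferase. In the comparison of the CAPH2 and SMC2 libraries with GFP, Hells (0.52) was higher and Prdm14 (-0.49) was lower. There 12 were not called, and 7.04% of all rows were higher and 5.43% lower. Hells encodes a chromatin remodeller needed for methylation of repeats. Its RPKM was 84.3 with GFP, 108 with SMC1 and 114 to 125 in the other 4.

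Of 10 genes listed as readers of methylated CpG or their relatives, 4 were higher with SMC1 and 0 lower. The shares of all rows were the same 23.1% and 21.3%, and the median was 0.07 against -0.01. Zbtb4 (0.72) and Mbd5 (0.54) had the largest increases. Zbtb33, which encodes the reader Kaiso, was the 1 gene of this list called with the CAPH2 and SMC2 libraries against GFP, at 0.74 (edgeR adjusted p = 0.0108). There 7.04% of all rows were higher and 5.43% lower. The Zbtb33 RPKM was 3.97 with GFP and between 5.98 and 7.51 in the other 5 libraries.

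Of 8 genes that bind TET proteins or supply their cofactor, 2 were higher with SMC1, 3 lower and 3 not called, a count of higher genes near the 23.1% of all rows (21.3% were lower). Cxxc4 (1.47), whose protein binds TET2, and Gadd45g (0.94) were higher. Idh2 (-1.12, SE 0.115, edgeR adjusted p = 6.94e-05), which makes the TET cofactor 2-oxoglutarate in mitochondria, and Ogt (-0.36), the O-GlcNAc transferase that TET proteins bind, were lower. Cxxc4 rested on few counts, 51.3 on average per library. Idh2 was also lower with the CAPH2 and SMC2 libraries against GFP, at -0.42, as was Gadd45b, at -0.66. There 7.04% of all rows were higher and 5.43% lower. The Gadd45b RPKM was 36.8 with GFP, 21.6 with SMC1 and 20.8 to 25.2 with CAPH2 and SMC2.

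Downstream of TDG, 5 of 9 base excision repair genes were lower with SMC1 and 0 higher, where 23.1% of all rows were higher and 21.3% lower. Their median was -0.27 against -0.01. With ERCC library sizes, 2 of the 5 turned sign, and the median was 0.14 against 0.41 for all rows. Neil2 (-1.09) and Neil1 (-0.66), glycosylases that can act beside TDG, were the lowest. Neil2 was also the 1 gene of this list called in the CAPH2 and SMC2 libraries against GFP, at -0.86. In that comparison 7.04% of all rows were higher and 5.43% lower. Of 8 genes that supply the methyl donor, 3 were lower with SMC1 and 0 higher, against 21.3% and 23.1% of all rows. These were Shmt1 (-0.80), Shmt2 (-0.80), the serine hydroxymethyltransferases of folate metabolism, and Mtrr (-0.39), a gene outside the naming rule. With the CAPH2 and SMC2 libraries against GFP, Mat2a (0.46), which makes S-adenosylmethionine, was higher, and Shmt1 (-0.30) and Shmt2 (-0.38) were lower. These calls stood beside 7.04% of all rows higher and 5.43% lower. The Mat2a RPKM was 152 with GFP, 217 with SMC1 and 192 to 219 with CAPH2 and SMC2.

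Germline genes whose promoters are methylated in somatic cells were also counted. Of 12 genes, 11 could be tested, and 5 were higher with SMC1, 1 lower and 5 not called, against 23.1% higher and 21.3% lower among all rows. Tdrd1 (1.81, SE 0.178, edgeR adjusted p = 5.50e-05), a Tudor protein of the piRNA pathway, was at an RPKM of 0.738 with GFP, 3.06 with SMC1 and 0.658 to 1.05 in the other 4. Mael (0.88) was higher, and Hormad1 (-1.53), a meiotic chromosome axis protein, was lower. Mael was lower with the CAPH2 and SMC2 libraries against GFP, at -0.72, so that SMC1 stood near GFP (10.9 and 9.65 RPKM) and above the other 4 (5.24 to 6.55). Sycp1 (0.76) was higher in that comparison, where 7.04% of all rows were higher and 5.43% lower. Its RPKM was 1.04 with GFP, 1.755 with SMC1 and 1.63 to 1.95 with CAPH2 and SMC2. In the comparison of CAPH2 with SMC2, edgeR called 0 genes of any of these 6 lists. Over the 6 lists, 34 genes were called in the comparison of SMC1 with the CAPH2 and SMC2 libraries. ERCC library sizes, which moved the median of all rows to 0.41, turned the sign of 11 of them, all small decreases, Ogt and Mtrr among them. In the CAPH2 and SMC2 libraries against GFP they turned 3 of 11, which were Idh2, Shmt1 and Shmt2.

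**Figure D4:**
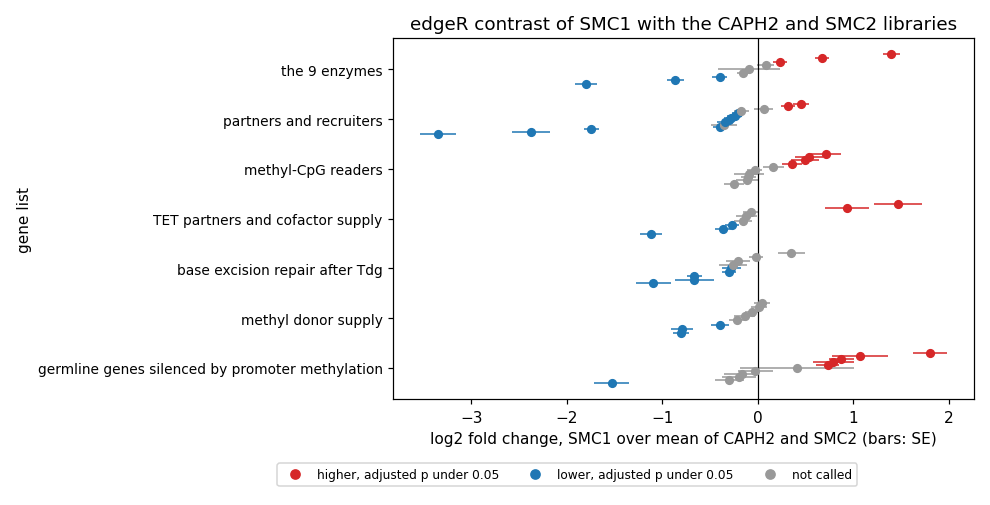
Log2 fold change of the SMC1 library over the mean of the CAPH2 and SMC2 libraries by edgeR, 1 point per gene with its SE, for the 9 enzymes and the 6 lists of related genes. Tet3 (1.40) and Tet2 (-1.80) are the outermost of the 9 enzymes, and Prdm14 (-3.35) is the lowest point of all. With ERCC library sizes the sign of Dnmt1, Uhrf1 and Tdg turns positive.

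For each gene, the pattern over the 6 libraries was set against 11594 genes that reached an RPKM of 1 in all 6, by Pearson's r of log2 RPKM over 6 libraries, with no test. The closest genes were Zfp941 (0.998) and Oxsr1 (0.996) for Tet2, and Arf3 (0.999) and Il17rd (0.999) for Tet3. For Dnmt3b they were Gpd2 (0.997) and Pheta2 (0.997), and for Tet1 Cdk19 (0.991) and 4931440P22Rik (0.989). For Uhrf1 they were Kif2c (0.9999) and Zfp710 (0.9995), and for Dnmt1 Usp28 (0.999) and Sema5b (0.998). Dnmt3a had Zkscan1 (0.977) and Slc3a1 (0.974), and Dnmt3l had Slc35d2 (0.984) and Cyp4f16 (0.970). The 6 points share libraries, of which the SMC1 library stands apart, and the values only name the nearest patterns.

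The rows of the 9 genes in mm9 were, for Dnmt1, NM_010066 (chr9:20711653-20757317, minus strand), for Uhrf1, NM_010931 (chr17:56442760-56462909, plus), for Dnmt3a, NM_007872 (chr12:3806980-3914443, plus), for Dnmt3b, NM_001003961 (chr2:153475190-153513466, plus) and for Dnmt3l, NM_019448 (chr10:77512587-77526360, plus). For the demethylation genes they were, for Tet1, NM_027384 (chr10:62267319-62342762, minus), for Tet2, NM_001040400 (chr3:133126641-133207354, minus), for Tet3, NM_183138 (chr6:83312370-83391672, minus) and for Tdg, NM_172552 (chr10:82092583-82113239, plus). Exonic reads over each row were counted, and the values of the other rows of a gene differed in log2 change by at most 0.04 for genes other than Tdg.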

How the data were processed

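Polyadenylated RNA of V6.5 ESCs was sequenced with a kit that does not mark strand. The authors aligned reads to mm9 using Bowtie, discarding reads that aligned to more than 2 places, and deposited raw counts of exonic reads per RefSeq row, made with RPKM_count. A read in a shared exon counts for each row. The deposited RPKM values are these counts divided by exon length and by the reads of the library, not scaled to the ERCC spike-ins, which were added by cell number. Counts over RefSeq rows were 28524603 (GFP), 25590914 (SMC1), 30988288 and 25016322 (both CAPH2 hairpins), 29953010 and 27150995 (both SMC2 hairpins), so counting error was small for all genes but Tdg.

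Gene symbols were assigned by RefSeq accession for 25353 rows and from overlapping GENCODE genes in mm9 for 698 rows, including Tet1, and 22 rows had none. The 9 genes and the gene lists were chosen with earlier results of these data known. Log2 changes against GFP were calculated from RPKM without a pseudocount over rows that reached an RPKM of 1 with GFP. The hairpins of a target were averaged first, and a fold of 1.5 counted as past. Intervals are exact binomial intervals of the ratio of counts and cover counting error only. The quasi-likelihood test of edgeR 4.0.16 with TMM factors was run on rows that had 10 counts or more in 2 or more libraries, p-values were adjusted by Benjamini and Hochberg and called under 0.05, and the step was tested on simulated data. DESeq2 1.42.0 was an alternative. Nothing in the labels says that libraries of a target were separate cultures beyond their different hairpins. The p-values therefore rest on the spread between hairpins of CAPH2 and of SMC2, which the single GFP and SMC1 libraries are assumed to share. Matches of transcripts to other places were found with blastn 2.17.0 (95% identity, at least 40 bases). The text names all 9 genes, the hairpin targets and, in each list and comparison, the 2 largest changes in each direction among called genes with at least 50 counts on average, with marker genes and 1 further gene named after their values were seen. Alternatives were other scalings (TMM, DESeq2 size factors, ERCC), filters, a pseudocount of 1, all rows of a gene or a single row, the replicate number as a block, a fit on all 6 libraries, and leaving out each hairpin. Other steps used R 4.3.3, Python 3.11.15 and scipy 1.17.1. The authors give a puromycin concentration in their methods that differs from that of the labels.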

Additional observations from a re-analysis of the deposited data

Results flagged for a closer look

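Of the 9 genes, 6 differed between SMC1 depletion and the depletion of CAPH2 and SMC2 by a test of the difference itself, the edgeR contrast of the SMC1 library with the CAPH2 and SMC2 libraries, in which 23.1% of all rows were called higher and 21.3% lower. Tet2 was lower with SMC1 by a log2 fold change of -1.80, Tet1 by -0.86 and Uhrf1 by -0.40. Tet3 was higher by 1.40, Dnmt3b by 0.67 and Dnmt3a by 0.23. The SMC1 library lay outside the range of the 4 CAPH2 and SMC2 libraries in RPKM for each of these 6 genes. It also lay outside that range for Dnmt1, which did not pass the test. The 6 genes were picked by a test on the same libraries, so their place outside the range is no further evidence. The share of all rows outside that range was not counted. The SMC1 arm holds 1 library with 1 hairpin, so a property of that library and depletion of SMC1 cannot be told apart.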

How the results depend on the processing

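In the comparison of SMC1 with the CAPH2 and SMC2 libraries, 6 genes were called under each alternative that kept all libraries, except ERCC library sizes. ERCC library sizes called 1, Tet3, and 1541 of 18463 rows higher and 170 lower, where the main fit called 4268 and 3929. That alternative raised the common biological coefficient of variation from 0.0674 to 0.249 and moved the median of all rows to 0.41. Under it the log2 fold changes of Dnmt1 (0.27), Uhrf1 (0.028) and Tdg (0.34) turned positive, and that of Tdg ran from -0.20 to 0.044 when 1 library was left out, positive without SMC2 replicate 2. Against GFP, ERCC scaling moved the median of all rows to 0.82 with SMC1, 0.31 with CAPH2 and 0.52 with SMC2, and put 6, 1 and 5 genes past 1.5-fold in place of 3, 0 and 0. Leaving out 1 SMC2 hairpin gave 0 to 1. The CAPH2 hairpins differed in their ERCC shift, 0.60 and -0.03. The cause was not tested.

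For the CAPH2 and SMC2 libraries against GFP, ERCC library sizes called 0 genes and turned Dnmt1 (0.40), Uhrf1 (0.26), Dnmt3l (0.40) and Tdg (0.071) positive, and leaving out 1 library gave 1 to 4 calls. For CAPH2 against SMC2, 1 gene was called without the filter on low counts, where 1 of 22130 rows was called higher and 7 lower. DESeq2 also called 1, where 1 of 18245 rows was higher and 4 lower. In the comparison of CAPH2 with SMC2, Dnmt3l turned to -0.22 with ERCC library sizes. With 1 library left out, Dnmt3l ran from -0.084 to 0.12, Uhrf1 from -0.12 to 0.0037 and Tet3 from -0.18 to 4.28e-05. The sign turned for Dnmt3l without replicate 1 of either target, for Uhrf1 without CAPH2 replicate 1 and for Tet3 without SMC2 replicate 2.

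The replicate numbers name hairpins of different targets. Deviations of same-numbered libraries correlated at 0.0488 over 18245 rows, so the numbers were not taken to pair the libraries. With the replicate number as a block, 6 genes were called in the SMC1 comparison, where 4828 of 18463 rows were called higher and 4540 lower. In the CAPH2 and SMC2 libraries against GFP 3 were called, with 2369 rows higher and 2030 lower, against 1300 and 1002 in the main fit. In CAPH2 against SMC2 1 was called, with 5 of 18245 rows higher and 10 lower. With 2 residual degrees of freedom and single GFP and SMC1 libraries, small differences are uncertain, and only Tdg was limited by low counts.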
